A study of Homo sapiens with 12 samples.

Results

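The kinesin family holds the motor proteins that turn ATP into movement along microtubules. Its members in HK-2 cells were taken as the genes whose symbol is KIF followed by a digit, among probe sets that the platform annotation ties to exactly 1 gene. Where a gene had several probe sets, the 1 with the highest mean was used. This gave 42 of 19775 genes, of which 38 encode motors and 4 are antisense RNAs (KIF1C-AS1, KIF9-AS1, KIF23-AS1 and KIF25-AS1). The motors were placed by their textbook role into 12 mitotic kinesins, 13 transport kinesins and 13 ciliary or other kinesins. Genes over log2 4 in 3 or more of the 12 arrays were tested, and these included 26 of the 38 motors: 11 mitotic, 10 transport and 5 others.

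HK-2 is a line of immortalised epithelial cells of the human renal proximal tubule. The cells were given a high dose of a compound called Aa for 24 h, a high dose of Aa for 48 h, the control vehicle for 24 h, or the control vehicle for 48 h. They were near confluence when dosing began, and each of the 4 groups held 3 samples described as biological replicates. What Aa is and the size of the dose are unstated in the sources used here. Values are log2 expression on Affymetrix arrays that the authors processed with GCRMA, in which 1 unit is a doubling, and a value near 2 or 3 is background.

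Kinesins of mitosis build the bipolar spindle, move and align chromosomes and then organise the central spindle on which the cell divides, and most of their genes are transcribed in the G2 and M phases of the cell cycle. Transport kinesins carry vesicles, organelles, mRNA and receptors from the cell centre outward in cells that divide and in cells that do not, and the heterotrimeric KIF3 motor also builds cilia. In a tubule epithelium these roles meet in repair, where surviving cells divide, and in polarity, where receptors and transporters are carried to the proper membrane.

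Within a group the arrays correlated at 0.994 to 0.997. Of 10 proximal tubule markers only SLC4A4 and SLC3A1 were over the filter, and LRP2, CUBN and AQP1 lay near background in all groups. The 5 epithelial markers and 0 of 3 leukocyte markers were over it, as were 1 of 5 endothelial and 3 of 5 fibroblast markers. Summed over the list as unlogged values, the tubule markers lay at log2 9.97 to 11.21 in Aa samples at 24 h. Control samples gave 11.15 to 12.07 at that time. At 48 h the sums were 8.91 to 9.96 in Aa samples and 11.92 to 13.04 in control samples. These sums rest mainly on SLC4A4, the brightest gene of the list. The 3' minus 5' difference of ACTB and GAPDH control probe sets, which grows as RNA degrades, was 0.264 to 0.547 on Aa arrays and 0.246 to 0.355 on control arrays at 24 h (log2). At 48 h it was 0.431 to 0.68 on Aa arrays and 0.235 to 0.418 on control arrays, and its part in the results was not tested.

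The promoters of the mitotic kinesins share letters that those of the transport kinesins mostly lack, and 7 are shown as examples. Each line gives the 100 bases before the annotated gene start, 5' to 3' on the gene's strand, from RefSeq (GRCh38.p14). Capitals mark TTTGAA (or TTCAAA on the other strand) and TTTAAA, the letters of the cell cycle genes homology region, through which the DREAM and MuvB complexes act on G2/M genes. They also mark CCAAT (or ATTGG), the box bound by NF-Y. The windows are chr10:92593030-92593129 (plus) for KIF11, chrX:70290004-70290103 (plus) for KIF4A, chr11:28108157-28108256 (minus) for KIF18A, chr5:138179012-138179111 (plus) for KIF20A, chr15:69414249-69414348 (plus) for KIF23, chr6:17987636-17987735 (minus) for KIF13A and chr1:20718008-20718107 (minus) for KIF17.
KIF11: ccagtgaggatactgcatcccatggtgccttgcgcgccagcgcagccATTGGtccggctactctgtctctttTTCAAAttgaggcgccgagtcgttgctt
KIF4A: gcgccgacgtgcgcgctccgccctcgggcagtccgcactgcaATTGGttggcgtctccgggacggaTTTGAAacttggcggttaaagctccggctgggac
KIF18A: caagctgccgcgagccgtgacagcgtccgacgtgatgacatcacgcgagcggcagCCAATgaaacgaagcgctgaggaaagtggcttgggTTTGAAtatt
KIF20A: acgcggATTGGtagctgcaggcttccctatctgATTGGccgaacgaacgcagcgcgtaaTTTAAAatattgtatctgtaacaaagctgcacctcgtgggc
KIF23: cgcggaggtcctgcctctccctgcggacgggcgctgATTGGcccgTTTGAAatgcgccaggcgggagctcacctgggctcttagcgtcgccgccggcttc
KIF13A: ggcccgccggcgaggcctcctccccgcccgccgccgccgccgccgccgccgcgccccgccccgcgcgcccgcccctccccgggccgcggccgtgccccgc
KIF17: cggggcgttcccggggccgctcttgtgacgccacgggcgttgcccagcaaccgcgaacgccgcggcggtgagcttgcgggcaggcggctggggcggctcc
KIF13A and KIF17 are transport kinesins of which the first fell and the second rose at 48 h, and neither stretch holds a match. Among transport kinesins not shown, KIF5B (ATTGG at -59) and KIF3B (CCAAT at -78) do hold a match within 100 bases of the start. The mitotic genes shown hold both kinds of match in this stretch, and those not shown do not. KIF14, KIF18B, KIF20B and KIF22 hold CCAAT but neither TTTGAA nor TTTAAA there. KIF15 (TTCAAA at -35) and KIF2C (TTTAAA from -3) hold no CCAAT there.

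Promoter windows of 250 bases before to 50 after the start were matched for 24 of the 26 tested motors, all but KIF13B and KIF26B. Either homology-region word was found in 10 of 11 mitotic genes, with KIF22 as the exception, and in 2 of 9 transport genes (KIF5B and KIF16B). It was found in 27.9% of all 27305 genes with a window and in 20.9% of the tested genes. From 60 bases before to 30 bases after the start, a range chosen after the positions were seen, the words occurred in 10 of 11 mitotic genes, 0 of 9 transport genes and 9.06% of all genes. CCAAT was present in 9 of 11 mitotic genes, 3 of 9 transport genes and 39.7% of all genes. A match describes letters in these windows and not binding. The mitotic genes that carried the words moved in different directions under Aa: KIF20A and KIF18A fell at both times, KIF23 and KIF18B rose at 48 h, and KIF11 passed the test at neither.

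Of the 26 tested motors, 13 differed between Aa-treated and control cells at 24 h, where 49.1% of all genes did, and 20 differed at 48 h, where 64.5% of all genes did. At 24 h the mitotic kinesins that differed were all lower in Aa-treated cells. KIF20A, KIF14, KIF20B, KIF18A and KIF4A fell, while the other 6 of the 11 tested did not pass the test (limma, Benjamini-Hochberg adjusted p under 0.05 over 11184 genes). Of all genes tested, 22.8% fell and 26.3% rose in this comparison. The count of mitotic kinesins that rose was also 0 at an unadjusted p under 0.05. Their median log2 change was -0.22 (0.02 over all genes tested), and the same-numbered differences between samples gave medians of -0.15, -0.22 and -0.33. In such bulk samples, fewer cells of a type and less RNA per cell cannot be told apart. Scaling to the spiked hybridisation controls moved the median of all genes to -0.26 at 24 h and -0.47 at 48 h, so directions are relative to the other genes on the array.

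The largest mitotic falls at 24 h were those of the cytokinesis kinesins KIF20A and KIF14, followed by the spindle kinesin KIF18A (-1.07). KIF20A (MKLP2), which carries the chromosomal passenger complex to the central spindle at anaphase, measured log2 9.68, 9.55 and 9.44 in Aa samples, against 10.91, 11.18 and 11.10 in control samples. It was 2.84-fold lower (log2 change -1.51, SE 0.14, limma adjusted p = 7.33e-06), and the groups lay more than a unit apart. KIF14, which binds the cytokinesis regulators PRC1 and citron kinase, measured 9.87, 9.92 and 9.54 in Aa samples, against 10.72, 10.93 and 11.06 in control samples. It was 2.18-fold lower (-1.12, SE 0.14, adjusted p = 9.03e-05), again with no overlap. Its second probe set gave -1.73. KIF20B, a late-mitotic motor needed for abscission, measured 9.38, 9.52 and 9.51 in Aa samples, against 10.01, 9.86 and 10.09 in control samples (-0.52, adjusted p = 0.00177). KIF23 (MKLP1), the motor of centralspindlin, was the cytokinesis kinesin that did not pass. It measured 9.99, 9.96 and 10.06 in Aa samples, against 9.80, 9.96 and 10.39 in control samples (-0.05, adjusted p = 0.831). The highest control sample decided its sign, since the change was 0.12 without control replicate 3. Its second probe set gave -0.45.

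Among the spindle kinesins at 24 h, KIF18A and KIF4A were lower. KIF18A, which shortens and steadies kinetochore microtubules so that chromosomes align, measured 8.05, 8.35 and 8.03 in Aa samples, against 8.93, 9.09 and 9.60 in control samples. It was 2.09-fold lower (-1.07, SE 0.21, adjusted p = 0.0015). KIF4A, a chromokinesin that sets the length of the central spindle, measured 9.86, 9.86 and 9.84 in Aa samples, against 10.21, 10.36 and 10.64 in control samples (-0.55, SE 0.11, adjusted p = 0.00208). All Aa samples of both genes lay below all control samples. KIF2C (MCAK), a depolymerase that corrects faulty kinetochore attachments, measured 10.97, 11.09 and 11.08 in Aa samples, against 11.11, 11.31 and 11.36 in control samples. The groups did not overlap, but the change of -0.22 passed only with the replicate number as a block (adjusted p = 0.133, and 0.0338 blocked).

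The other 4 spindle kinesins did not pass at 24 h. KIF11 (Eg5), the motor that pushes the spindle poles apart, measured 11.09, 10.96 and 11.15 in Aa samples, against 10.89, 10.88 and 11.21 in control samples (0.07, adjusted p = 0.613). KIF15, which can stand in for KIF11 in holding the poles apart, measured 8.37, 8.46 and 8.25 in Aa samples, against 8.23, 8.58 and 8.56 in control samples (-0.10, adjusted p = 0.511). For both motors of spindle bipolarity the groups overlapped. KIF22 (Kid), a chromokinesin that pushes chromosome arms toward the spindle equator, measured 9.71, 9.27 and 9.32 in Aa samples, against 9.33, 8.92 and 9.34 in control samples (0.24, adjusted p = 0.361). Its second probe set gave -0.17. KIF18B, a partner of KIF2C at astral microtubule tips, measured 10.21, 10.01 and 10.01 in Aa samples, against 9.84, 9.82 and 9.93 in control samples (0.21, adjusted p = 0.13). Hybridisation-control scaling turned the signs of KIF11, KIF22 and KIF18B at this time. KIF2B, the remaining spindle gene, was under the filter.

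**Figure D1:**
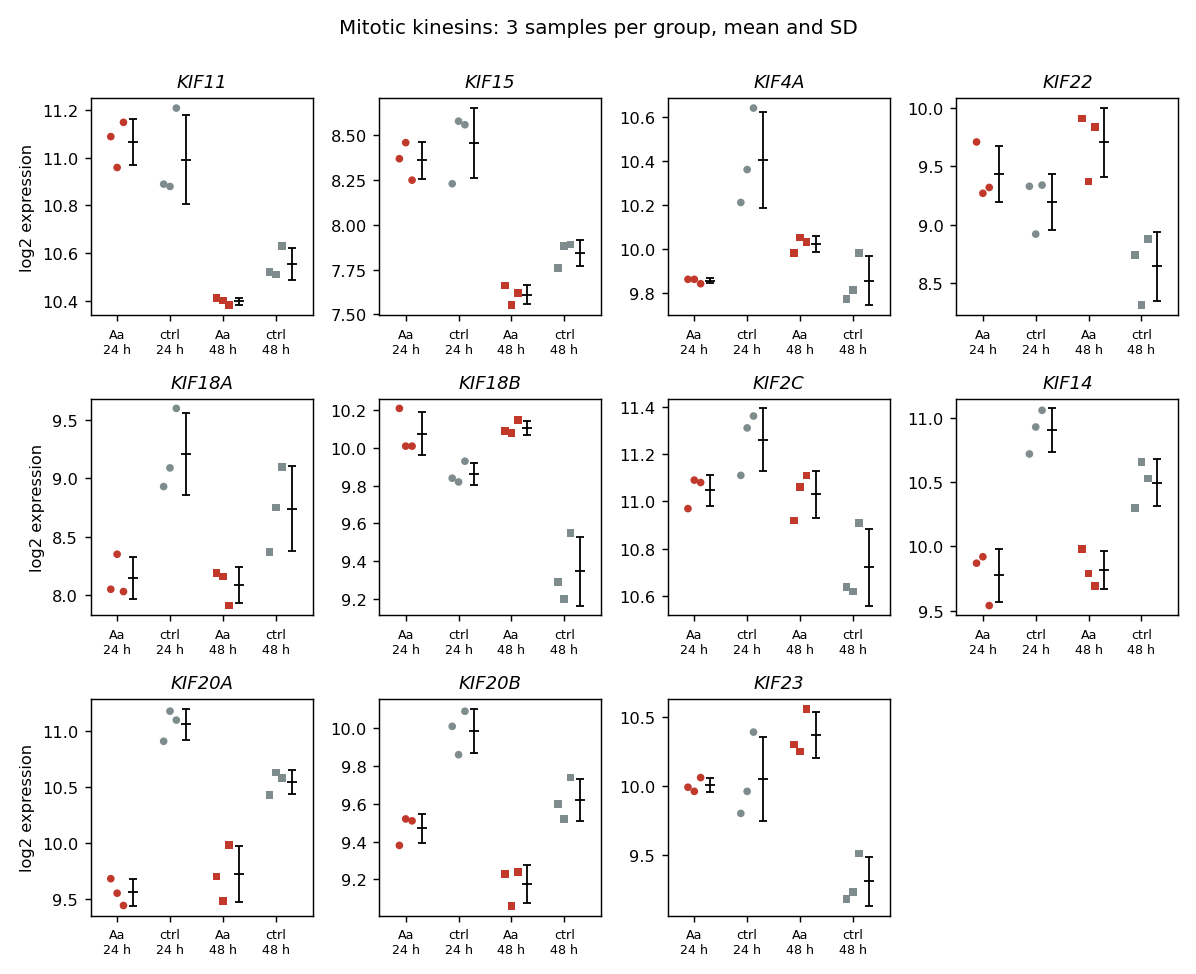
Log2 expression of the 11 tested mitotic kinesins in each sample, with the mean and SD of the 3 samples of a group beside the points (red, Aa; grey, control; circles, 24 h; squares, 48 h; each panel has its own vertical axis). Aa and control samples of KIF20A, KIF14, KIF20B and KIF18A are apart at both times, with Aa below control, while KIF23, KIF22 and KIF18B are higher in Aa than in control samples at 48 h.

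At 48 h the mitotic kinesins split. KIF23, KIF22, KIF18B and KIF2C were higher in Aa-treated cells, and KIF20A, KIF14, KIF18A and KIF20B were lower, with 3 of 11 not passing. Over all genes tested 30.6% rose and 33.9% fell, so neither count stands far from the share of all genes. With hybridisation-control scaling 2 rose, KIF23 and KIF22. The groups did not overlap for any of the 11, against 69.1% of all genes. The median change of the 11 was -0.16 (all genes -0.03), and the same-numbered differences gave -0.10, -0.11 and -0.25, so a median near 0 here covers changes in both directions.

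KIF23 and KIF20A, both kinesins of the central spindle, moved apart at 48 h. KIF23 measured 10.30, 10.25 and 10.56 in Aa samples, against 9.18, 9.23 and 9.51 in control samples. It was 2.09-fold higher (log2 change 1.07, SE 0.16, adjusted p = 0.000123), and its second probe set gave 0.92. KIF20A measured 9.70, 9.48 and 9.98 in Aa samples, against 10.43, 10.63 and 10.58 in control samples (-0.83, adjusted p = 0.0003). KIF14 was lower too, at 9.98, 9.79 and 9.69 in Aa samples, against 10.30, 10.66 and 10.53 in control samples (-0.67, adjusted p = 0.00181). KIF20B measured 9.23, 9.06 and 9.24 in Aa samples, against 9.60, 9.52 and 9.74 in control samples (-0.44, adjusted p = 0.00318). Thus 3 of the 4 cytokinesis motors fell and 1 rose. The calls of KIF20B were lost at both times with the mean of all its probe sets.

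The other rises at 48 h were in the spindle genes KIF22, KIF18B and KIF2C. KIF22 measured 9.91, 9.37 and 9.84 in Aa samples, against 8.74, 8.31 and 8.88 in control samples. It was 2.09-fold higher (1.06, SE 0.20, adjusted p = 0.000835), although its second probe set gave 0.29. KIF18B measured 10.09, 10.08 and 10.15 in Aa samples, against 9.29, 9.20 and 9.55 in control samples, and was 1.7-fold higher (0.76, SE 0.11, adjusted p = 0.000103). KIF2C measured 10.92, 11.06 and 11.11 in Aa samples, against 10.64, 10.62 and 10.91 in control samples (0.31, adjusted p = 0.0314). The call of KIF2C was lost without Aa replicate 2 (adjusted p = 0.0757), Aa replicate 3 (0.0939), control replicate 1 (0.0948) or control replicate 2 (0.106). With hybridisation-control scaling KIF2C gave -0.13 and the KIF18B call was lost.

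KIF18A was the spindle kinesin that fell at 48 h. It measured 8.19, 8.16 and 7.91 in Aa samples, against 8.37, 8.75 and 9.10 in control samples (-0.66, adjusted p = 0.0171). The call was lost without Aa replicate 3 (adjusted p = 0.0618) or control replicate 3 (0.0705). KIF11 measured 10.41, 10.40 and 10.38 in Aa samples, against 10.52, 10.51 and 10.63 in control samples (-0.16, adjusted p = 0.22). KIF15 measured 7.66, 7.55 and 7.62 in Aa samples, against 7.76, 7.88 and 7.89 in control samples (-0.24, adjusted p = 0.0871, and 0.0493 without control replicate 1 at 24 h). KIF4A measured 9.98, 10.05 and 10.03 in Aa samples, against 9.77, 9.81 and 9.98 in control samples (0.17, adjusted p = 0.221). These differences were small beside those of KIF23 and KIF22.

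The change with time differed between control and Aa-treated cells for several mitotic kinesins. In control cells all 11 had lower means at 48 h than at 24 h, with a median log2 change of -0.52 (-0.01 over all genes). KIF15 alone passed (-0.61, adjusted p = 0.0422), where 0.358% of all genes fell. At an unadjusted p under 0.05 all 11 kinesins fell, as did 1008 of the 11184 genes tested. With the replicate number as a block 9 of the 11 fell, all but KIF18A and KIF14, against 8.27% of all genes, among them KIF23 (-0.74, adjusted p = 0.00459) and KIF2C (-0.54, adjusted p = 0.00559). The count passing without the block was 0 when any single sample was left out except control replicate 3 at 48 h, without which it was 5. In Aa-treated cells the median change from 24 h to 48 h was 0.03, and KIF11 (-0.67, adjusted p = 0.00142) and KIF15 (-0.75, adjusted p = 0.00103) were the 2 that fell, where 19.5% of all genes did. With the block KIF23 rose (0.37, adjusted p = 0.101, and 0.0129 blocked) and KIF20B fell as well (-0.29, adjusted p = 0.0573, and 0.0167 blocked), against 16.1% and 28.5% of all genes.

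The difference between the changes at 48 h and at 24 h was tested in the same model. It was positive and passed for 5 of 11 mitotic kinesins, KIF23 (1.11, adjusted p = 0.00823), KIF4A (0.72, adjusted p = 0.0135), KIF20A (0.68, adjusted p = 0.0336), KIF18B (0.55, adjusted p = 0.0311) and KIF2C (0.52, adjusted p = 0.0408), against 6.8% of all genes. With the block KIF22 passed as well (0.82, adjusted p = 0.0658, and 0.00382 blocked). The calls of the first 5 genes against control differed. KIF20A fell at both times and KIF4A at 24 h alone, while KIF23, KIF18B and KIF2C passed as rises at 48 h alone. From 24 h to 48 h the means of these 5 changed by -0.74 to -0.52 in control cells and by -0.02 to 0.37 in Aa-treated cells. Without the block none of those changes within a treatment passed. The count of positive differences was 2 without Aa replicate 2 or 3 at 24 h, Aa replicate 3 at 48 h, control replicate 3 at 24 h or control replicate 1 or 2 at 48 h, and 3 without control replicate 2 at 24 h. It was 2 with hybridisation-control scaling. Spindle and cytokinesis kinesins gave similar medians of this difference, 0.52 and 0.56, against -0.07 for all genes.

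**Figure D2:**
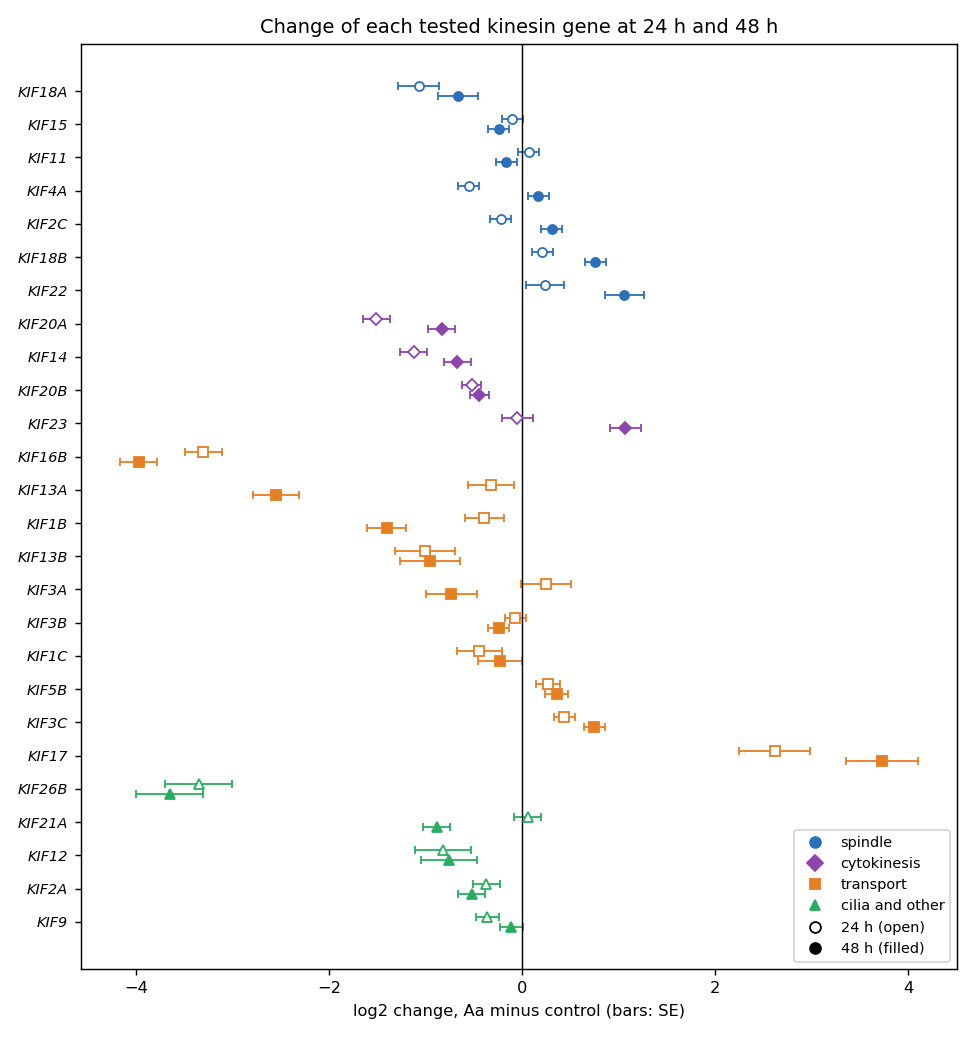
Log2 change (Aa minus control) of each of the 26 tested kinesin genes at 24 h (open symbols) and 48 h (filled symbols), with the standard error from limma as bars and the role class by colour. Symbols of KIF23, KIF22 and KIF4A move right between the times, those of KIF13A, KIF1B and KIF21A move left, and KIF16B and KIF26B lie far to the left at both times.

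The transport kinesins followed no single direction at 24 h. KIF17 and KIF3C were higher in Aa-treated cells, KIF16B and KIF13B were lower, and 6 of 10 did not pass. Of these, KIF17 and KIF16B were favoured by the filter to differ, at this time and at 48 h, for the reason given below. Over all genes tested 26.3% rose and 22.8% fell. With the replicate block KIF1B, KIF1C and KIF5B passed as well, which made 4 falls and 3 rises, against 29.1% and 32.5% of all genes. The count that fell was 1 without Aa replicate 2, Aa replicate 3 or control replicate 1. The median change was -0.20, with same-numbered differences of -0.25, -0.19 and -0.21, but it was 0.25 with the mean of all probe sets of a gene.

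At 48 h transport kinesins again moved both ways. KIF16B, KIF13A, KIF1B, KIF13B and KIF3A fell and KIF17, KIF3C and KIF5B rose, with KIF1C and KIF3B not passing. Of all genes 33.9% fell and 30.6% rose. Without control replicate 1, control replicate 2 or a filter on low values the falls were 3, and with hybridisation-control scaling the rises were 1. With the replicate block KIF1C and KIF3B passed as falls too (adjusted p = 0.0443 and 0.0276). The median was -0.48, with same-numbered differences of -0.64, -0.50 and -0.26. The change grew more negative between the times for KIF13A and KIF1B, against 12.7% of all genes, and more positive for 0 of 10, also at an unadjusted p under 0.05. Only KIF13A passed without Aa replicate 2, control replicate 1 or control replicate 3 at 24 h, or without Aa replicate 3, control replicate 1 or control replicate 2 at 48 h. With the replicate block KIF3C passed as the 1 positive difference (0.30, adjusted p = 0.184, and 0.0491 blocked) and KIF3A as a negative one (-0.97, adjusted p = 0.0796, and 0.0237 blocked).

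KIF16B and KIF13A showed the deepest falls among motors of endosome transport. KIF16B, which moves early endosomes and shapes receptor recycling, measured 3.89, 4.16 and 4.15 in Aa samples, against 7.55, 7.33 and 7.22 in control samples at 24 h. Its 48 h values were 3.92, 3.26 and 3.48 in Aa samples, against 7.88, 7.41 and 7.29 in control samples. With Aa arrays under log2 4 set to that floor, it was at least 9.6-fold lower at 24 h (adjusted p = 3.18e-07) and at least 11.5-fold lower at 48 h (adjusted p = 4.81e-08). KIF16B was thus near background in all Aa samples, and its second probe set gave -1.62 and -2.45. KIF13A, which carries mannose 6-phosphate receptors and recycling endosomes, differed mainly at 48 h. It measured 8.70, 8.94 and 9.03 in Aa samples, against 9.16, 9.21 and 9.28 in control samples at 24 h (-0.32, adjusted p = 0.282). By 48 h it measured 7.51, 6.30 and 6.75 in Aa samples, against 9.43, 9.33 and 9.44 in control samples, and was 5.86-fold lower (-2.55, SE 0.24, adjusted p = 4.42e-06). The difference between the times was -2.23 (adjusted p = 0.00265), and control samples varied by little. Of the 6 probe sets of KIF13A, 2 were over the filter. The second of these had a mean of log2 4.08 and gave -0.07 at 24 h and -0.43 at 48 h. The depth of the KIF13A fall thus rests on the probe set used, although values so close to log2 4 are near background.

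KIF1B and KIF13B, transport motors of the kinesin-3 family like KIF16B and KIF13A, were lower as well. KIF1B, a motor of mitochondria and synaptic vesicle precursors, measured 9.11, 9.57 and 9.20 in Aa samples, against 9.50, 9.91 and 9.64 in control samples at 24 h (-0.39, adjusted p = 0.137, and 0.0473 with the replicate block). At the later time it measured 8.56, 8.47 and 7.86 in Aa samples, against 9.56, 9.93 and 9.59 in control samples, and was 2.63-fold lower (-1.40, SE 0.20, adjusted p = 0.00012). Its probe sets disagreed, since 1 gave -0.40 and -1.60 and another gave 1.05 and -0.02. KIF13B, known for carrying phosphoinositide-bearing vesicles and for a part in caveolar endocytosis, measured 6.07, 5.57 and 5.54 in Aa samples, against 7.15, 6.80 and 6.23 in control samples at 24 h (-1.00, SE 0.31, adjusted p = 0.0198). At 48 h it measured 6.26, 6.43 and 5.45 in Aa samples, against 7.34, 7.07 and 6.57 in control samples (-0.95, adjusted p = 0.0193). Its groups were apart but spread widely. The 24 h call was lost without Aa replicate 2 (adjusted p = 0.0603), Aa replicate 3 (0.0631), control replicate 1 (0.0804) or control replicate 2 (0.0555). The 48 h call was lost without Aa replicate 3 (0.0821), control replicate 1 (0.0745) or control replicate 2 (0.0522).

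KIF1C, a motor of integrin-bearing vesicles and mRNA, has probe sets that run in opposite directions. Its representative probe set measured 8.32, 8.04 and 8.45 in Aa samples, against 8.90, 8.31 and 8.92 in control samples at 24 h (-0.44, adjusted p = 0.132, and 0.00248 with the block). It measured 8.40, 7.94 and 8.51 in Aa samples, against 8.81, 8.14 and 8.59 in control samples at 48 h (-0.23, adjusted p = 0.398, and 0.0443 with the block). Another of its probe sets gave 2.21 and 1.61, so no direction can be given for the gene. Without control replicate 2 the 24 h value passed (adjusted p = 0.0415).

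KIF17, which moves cargo in dendrites and cilia, was at background in all control samples and above it in all Aa samples. It measured 5.49, 5.09 and 4.42 in Aa samples, against 2.38, 2.38 and 2.39 in control samples at 24 h. Its 48 h values were 7.13, 5.59 and 5.62 in Aa samples, against 2.38, 2.37 and 2.38 in control samples. It was at least 2-fold higher at 24 h (adjusted p = 0.000173) and at least 4.33-fold higher at 48 h (adjusted p = 7.33e-06). In Aa-treated cells the 48 h value was above the 24 h value (1.11, adjusted p = 0.0439), a call that was lost in 9 of the 12 fits without 1 sample, those without Aa replicate 2 or 3 at 24 h, Aa replicate 1 at 48 h or any of the 6 control samples. KIF17 entered the test through its Aa arrays alone. KIF26B, below, entered it through its control arrays alone, and KIF16B needed its control arrays, since only 2 of its Aa arrays were over log2 4. All 3 genes thus needed the treatment in which they were high to pass the filter. The filter therefore favoured a difference, and their p-values are no independent support for one.

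KIF5B, the heavy chain of the ubiquitous kinesin-1, measured 12.32, 12.62 and 12.27 in Aa samples, against 12.05, 12.22 and 12.13 in control samples at 24 h (0.27, adjusted p = 0.085, and 0.0204 with the block). By 48 h it measured 12.57, 12.58 and 12.41 in Aa samples, against 12.04, 12.31 and 12.15 in control samples (0.36, adjusted p = 0.0217). All Aa samples lay above all control samples at both times, although the sign turned with hybridisation-control scaling (-0.02 and -0.09). The 48 h call was lost without Aa replicate 1 (adjusted p = 0.0615), Aa replicate 2 (0.0644), control replicate 1 (0.0795) or control replicate 3 (0.0509).

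The 3 genes of heterotrimeric kinesin-2, which pairs KIF3A with KIF3B or KIF3C, did not move together. KIF3C measured 8.05, 7.79 and 8.03 in Aa samples, against 7.56, 7.42 and 7.56 in control samples at 24 h (0.44, adjusted p = 0.00567). At the later time it measured 8.05, 7.78 and 8.03 in Aa samples, against 7.19, 7.19 and 7.24 in control samples (0.75, adjusted p = 0.000118). Its second probe set gave 0.15 and -0.29, so the rise at 48 h rests on 1 of 2 probe sets. KIF3A measured 7.53, 7.58 and 6.61 in Aa samples, against 7.30, 6.90 and 6.79 in control samples at 24 h (0.25, adjusted p = 0.457, and 0.0434 without Aa replicate 3, where the change was 0.56). At 48 h it measured 6.83, 6.52 and 6.82 in Aa samples, against 7.70, 7.53 and 7.13 in control samples (-0.73, adjusted p = 0.0269), while its other probe set gave 0.16. The KIF3A call at 48 h was lost without Aa replicate 2 (adjusted p = 0.0864), control replicate 1 (0.0931) or control replicate 2 (0.0702). KIF3B measured 9.52, 9.41 and 9.48 in Aa samples, against 9.62, 9.52 and 9.49 in control samples at 24 h (-0.07, adjusted p = 0.627). Its 48 h values were 9.54, 9.32 and 9.20 in Aa samples, against 9.67, 9.69 and 9.42 in control samples (-0.24, adjusted p = 0.0824, and 0.0276 with the block). Without Aa replicate 1 or control replicate 3 the KIF3B value at 48 h passed (-0.33 in each fit, adjusted p = 0.0296 and 0.0323).

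**Figure D3:**
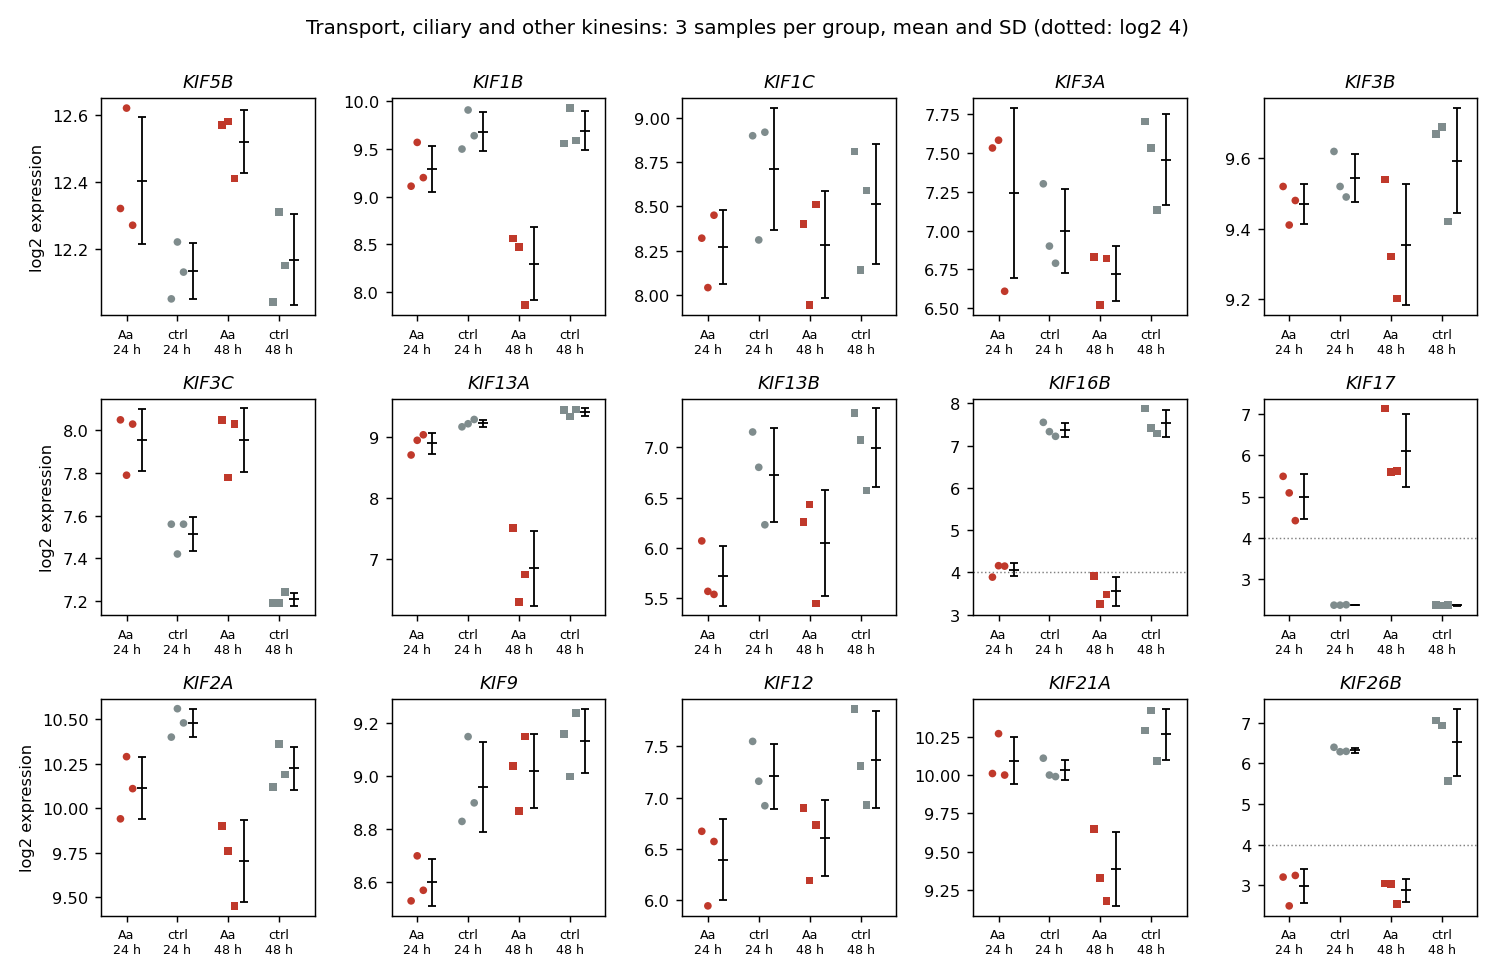
Log2 expression of the 10 tested transport kinesins (upper 2 rows) and the 5 tested ciliary or other kinesins (bottom row) in each sample, with the mean and SD of the 3 samples of a group (red, Aa; grey, control; circles, 24 h; squares, 48 h; each panel has its own vertical axis; the dotted line is log2 4). KIF16B and KIF26B are near or under the line in Aa samples and above it in control samples, and KIF17 is the other way round.

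Of the 5 other kinesins tested, 4 fell at each time and 0 rose, also at an unadjusted p under 0.05. Of all genes 22.8% fell and 26.3% rose at 24 h, and 33.9% fell and 30.6% rose at 48 h. One of the 4, KIF26B, is among the genes that the filter favoured to differ. KIF26B, a kinesin-like protein that takes part in cell adhesion and kidney development in mice, measured 3.20, 2.49 and 3.24 in Aa samples, against 6.40, 6.29 and 6.30 in control samples at 24 h. By 48 h it measured 3.04, 3.03 and 2.54 in Aa samples, against 7.06, 6.94 and 5.57 in control samples. It was at least 5.03-fold lower at 24 h (adjusted p = 2.06e-05) and at least 5.75-fold lower at 48 h (adjusted p = 5.68e-06), with all Aa samples at background. KIF21A, which halts microtubule growth at the cell cortex, measured 10.01, 10.27 and 10.00 in Aa samples, against 10.11, 10.00 and 9.99 in control samples at 24 h (0.06, adjusted p = 0.747, with a change of -0.03 without Aa replicate 2). At the later time it measured 9.65, 9.33 and 9.18 in Aa samples, against 10.29, 10.42 and 10.09 in control samples (-0.88, adjusted p = 0.000206). The times differed for KIF21A (-0.94, adjusted p = 0.00986).

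The remaining 3 of these genes changed by less than 1 log2 unit with the probe set used. KIF12, a kinesin known from modifier studies of cystic kidney disease in mice, measured 6.67, 5.94 and 6.57 in Aa samples, against 7.55, 7.16 and 6.92 in control samples at 24 h (-0.82, adjusted p = 0.0337). At 48 h it measured 6.90, 6.19 and 6.73 in Aa samples, against 7.87, 7.31 and 6.93 in control samples (-0.76, adjusted p = 0.0358). The 24 h call of KIF12 was lost without Aa replicate 2 (adjusted p = 0.128), control replicate 1 (0.123) or control replicate 2 (0.0672), and the 48 h call without Aa replicate 2 (0.135), Aa replicate 3 (0.0557), control replicate 1 (0.144) or control replicate 2 (0.0648).

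KIF2A, a microtubule depolymerase of spindle poles and of neurites and cilia, measured 9.94, 10.29 and 10.11 in Aa samples, against 10.40, 10.56 and 10.48 in control samples at 24 h (-0.37, adjusted p = 0.0432). Its 48 h values were 9.90, 9.76 and 9.45 in Aa samples, against 10.12, 10.36 and 10.19 in control samples (-0.52, adjusted p = 0.00618). The groups did not overlap at either time, and the 24 h call was lost in 8 of the 12 fits without 1 sample. These were the fits without Aa replicate 1 or 3 or any control replicate at 24 h, and without Aa replicate 2 or control replicate 1 or 3 at 48 h (highest adjusted p = 0.154). The second probe set of KIF2A gave -0.17 at 24 h and -1.10 at 48 h. KIF9, a motor of motile cilia, measured 8.53, 8.70 and 8.57 in Aa samples, against 8.83, 9.15 and 8.90 in control samples at 24 h (-0.36, adjusted p = 0.0271). By 48 h it measured 9.04, 8.87 and 9.15 in Aa samples, against 9.16, 9.00 and 9.24 in control samples (-0.11, adjusted p = 0.428). The 24 h call of KIF9 was lost without Aa replicate 1 (adjusted p = 0.0855), Aa replicate 3 (0.0673) or control replicate 2 (0.11).

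The 12 motors that were not tested lay between log2 1.93 and 3.30 on all arrays. They were the spindle gene KIF2B, the neuronal transport genes KIF1A, KIF5A and KIF5C, and KIF6, KIF7, KIF19, KIF21B, KIF24, KIF25, KIF26A and KIF27, some of which serve cilia and hedgehog signalling. The highest value of the 4 antisense RNAs was 3.49. The array cannot order values at this level.

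Set side by side, the mitotic and transport medians were -0.22 and -0.20 at 24 h, and -0.16 and -0.48 at 48 h. The transport median rests on the choice of probe sets and filter. At 24 h it was 0.25 with the mean of all probe sets of a gene, and 0.04 with the probe set of largest variance, where the mitotic median was -0.45. At 48 h it was -0.22 with the mean of all probe sets and -0.23 without a filter, so no order of the classes can be read from these medians. Fitted changes of at least 1 log2 unit that passed were seen in 3 of 11 mitotic and 3 of 10 transport kinesins at 24 h, against 20.7% of all genes, and in 2 of 11 and 4 of 10 at 48 h, against 31.9%. Groups did not overlap for 7 of 11 mitotic and 6 of 10 transport kinesins at 24 h, where 59.8% of all genes did not. All these transport counts include KIF16B and KIF17, which the filter favoured to differ, so they cannot be weighed against the mitotic counts. No test was made of the class difference, since the members of a class are genes and not replicates of a condition.

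The 5 tested kinesin genes with the largest falls at 48 h are also the 5 longest of those tested, although the change of KIF13B there (-0.95) was close to those of KIF21A (-0.88) and of the short gene KIF20A (-0.83). KIF26B spans 554 kb, KIF16B 301 kb, KIF13A 229 kb, KIF13B 196 kb and KIF1B 171 kb in RefSeq (GRCh38.p14), whereas the longest tested mitotic gene, KIF4A, spans 131 kb and KIF20A spans 8.61 kb. All 5 tested motors over 150 kb fell at 48 h and 3 of them at 24 h, with median changes of -2.55 and -1.00. KIF6 (395 kb) and KIF5C (152 kb) are also over this length but were not tested. KIF26B and KIF16B, counted as falls at both times, needed their control arrays to pass the filter, which favoured a fall. Among all 1103 tested genes over 150 kb, 82.8% fell at 48 h and 65.9% at 24 h, with medians of -1.53 and -0.95. Among motors under 50 kb, 5 of 9 rose and 3 fell at 48 h, where 38.7% of all 7350 genes of that span rose and 22.7% fell. At 24 h 0 of these 9 rose and 2 fell, with a median of -0.05, where 30.6% of all genes of that span rose and 15.5% fell. The limits of these span classes were chosen after values were seen, and KIF21A lies just under the upper one.

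Across the 26 genes, the change at 48 h and the log10 of the span had Pearson's r = -0.554 and Spearman's rho = -0.599, and at 24 h r = -0.379 and rho = -0.372. These are descriptions across genes, which share the 12 arrays and are not independent replicates. KIF16B, KIF17 and KIF26B are among the 26 and were favoured by the filter to differ. Over 11176 tested genes with a span the values were -0.385 and -0.366 at 48 h, and -0.292 and -0.247 at 24 h. Within the 11 mitotic kinesins they were -0.296 and -0.227 at 48 h, and within the 15 transport and other kinesins -0.591 and -0.725. At 24 h they were -0.0102 and -0.273 within the mitotic kinesins, and -0.508 and -0.411 within the transport and other kinesins. KIF20A, KIF14 and KIF18A fell although their spans are not among the longest, and KIF17, of 56.4 kb, rose.

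**Figure D4:**
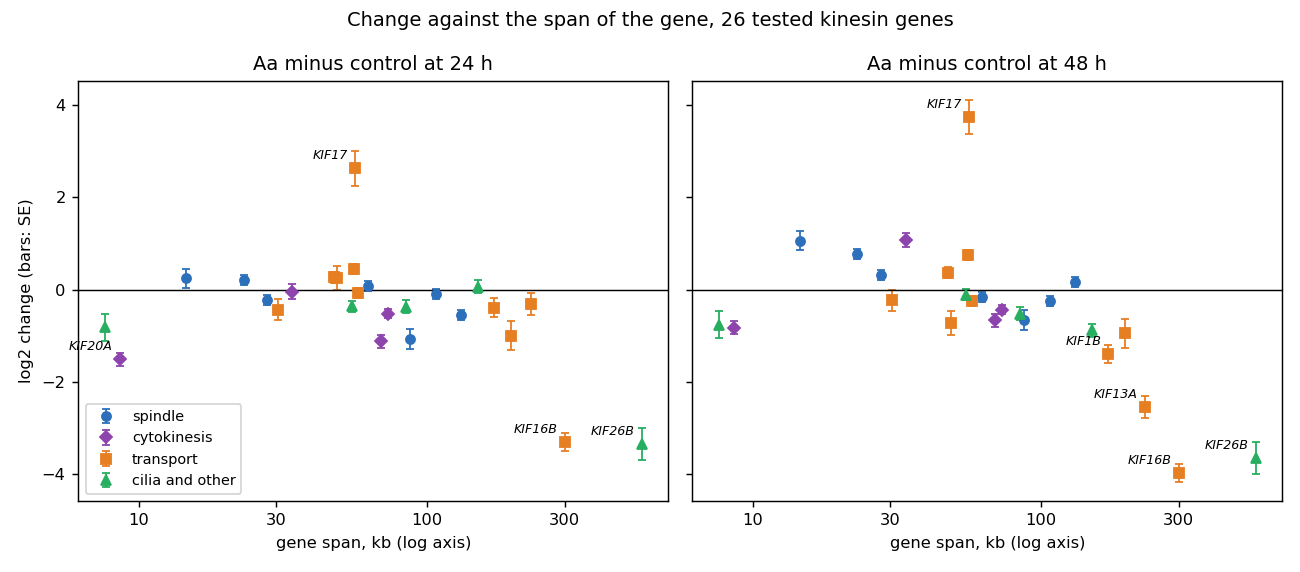
Log2 change (Aa minus control, with the standard error from limma) against the span of the gene in kb on a log axis, for the 26 tested kinesin genes at 24 h (left) and 48 h (right), by role class; genes past 1.3 log2 units are named. The 5 genes over 150 kb lie below 0 at both times, and KIF17 lies above the rest.

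Kinesin genes with other symbols and partners of the motors were counted from lists, beside the shares of all genes: 26.3% rose and 22.8% fell at 24 h, and 30.6% rose and 33.9% fell at 48 h. CENPE, the kinetochore kinesin that brings chromosomes to the spindle equator, measured 8.02, 8.18 and 8.13 in Aa samples, against 9.49, 9.64 and 9.74 in control samples at 24 h (-1.52, adjusted p = 1.04e-06, beside -1.51 for KIF20A). At 48 h its change was -0.81 (adjusted p = 5.29e-05), beside -0.83 for KIF20A. KIFC3, a minus-end motor of epithelial junctions, rose at both times (0.45, adjusted p = 0.00939, and 0.82, adjusted p = 0.000118). KIFC2 had a change of 0.01 at 24 h and rose at 48 h (1.07, adjusted p = 0.044), with wide spread among its samples. Of the 4 genes in this list 1 rose and 1 fell at 24 h, and 2 rose and 1 fell at 48 h, too few to set against those shares.

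Light chains and cargo adaptors of kinesins, 14 of 16 tested, counted 5 that rose and 2 that fell at 24 h, and 6 and 5 at 48 h. At 24 h 26.3% of all genes rose and 22.8% fell, and at 48 h 30.6% rose and 33.9% fell. KIFAP3, the subunit that completes heterotrimeric kinesin-2, measured 6.37, 6.11 and 5.66 in Aa samples, against 8.81, 8.95 and 8.66 in control samples at 48 h. It was 6.78-fold lower there (-2.76, adjusted p = 3.64e-07) and 2.67-fold lower at 24 h (-1.42, adjusted p = 7.82e-05). The kinesin-1 adaptor gene MAPK8IP3 rose at both times (2.39, adjusted p = 3.67e-06, and 2.62, adjusted p = 1.04e-06). The light chain gene KLC2 also rose, by 0.79 at 24 h (adjusted p = 0.00268) and 1.67 at 48 h (adjusted p = 9.02e-06).

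Among 13 partners of mitotic kinesins 0 rose and 6 fell at 24 h, and 4 rose and 3 fell at 48 h. At an unadjusted p under 0.05 the rises at 24 h were also 0. The shares of all genes were 26.3% and 22.8% at 24 h, and 30.6% and 33.9% at 48 h, so the 48 h counts are no more than those shares. AURKA, the kinase of spindle poles, measured 11.07, 11.07 and 10.86 in Aa samples, against 12.21, 12.25 and 12.56 in control samples at 24 h (-1.34, adjusted p = 2.68e-05), and its change was -0.70 at 48 h (adjusted p = 0.00139). KNSTRN, a kinetochore protein, fell as well (-1.22, adjusted p = 0.000104 at 24 h, and -0.55, adjusted p = 0.0108 at 48 h). AURKB, the kinase that KIF20A carries to the central spindle, had a change of 0.20 at 24 h (adjusted p = 0.432) and rose by 1.33 at 48 h (adjusted p = 0.00017), so at that time it moved with KIF23 and against KIF20A.

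The minus-end motor dynein and its cofactors, 21 of 23 tested, counted 6 that rose and 4 that fell at 24 h, and 7 and 8 at 48 h. These counts are near the shares of all genes, 26.3% and 22.8% at 24 h, and 30.6% and 33.9% at 48 h. NDE1, which links LIS1 to dynein, fell by 2.15 at 24 h (adjusted p = 1.57e-05) and by 2.01 at 48 h (adjusted p = 1.34e-05). PAFAH1B1, which encodes LIS1, fell by 0.81 (adjusted p = 0.00268) and by 1.81 (adjusted p = 5.66e-06). BICD1, a cargo adaptor, had a change of -1.36 at 24 h (adjusted p = 0.0564) and fell by 2.11 at 48 h (adjusted p = 0.00519), with an SE of 0.54. These 3 had the largest changes of the list and do not stand for dynein as a whole. The heavy chain gene DYNC1H1 rose by 1.12 at 24 h (adjusted p = 3.67e-05) and by 1.52 at 48 h (adjusted p = 2.08e-06).

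Of 10 tested regulators of G2/M transcription, 3 rose and 1 fell at 24 h, and 5 rose and 3 fell at 48 h, where 26.3% and 22.8% of all genes did at 24 h, and 30.6% and 33.9% at 48 h. CDKN1A, an inhibitor of cyclin-dependent kinases, had the largest change of this list, with rises of 1.62 at 24 h (adjusted p = 0.000113) and 1.96 at 48 h (adjusted p = 1.54e-05). E2F5, a factor of the DREAM complex, fell at both times (-1.33, adjusted p = 1.69e-05, and -1.59, adjusted p = 2.44e-06). MYBL2, which joins MuvB in proliferating cells, measured 10.60, 10.55 and 10.74 in Aa samples, against 9.30, 8.86 and 9.85 in control samples at 48 h (1.29, adjusted p = 0.000666). The reference genes ACTB (-0.09 and -0.29, adjusted p = 0.586 and 0.0634) and GAPDH (0.03 and -0.08, adjusted p = 0.782 and 0.423) did not pass at either time.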

How the data were processed

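Expression in HK-2 cells was measured on 12 Affymetrix arrays, in 4 groups of 3. The authors deposited log2 expression values, for which the submitters' processing notes name GCRMA. This method corrects background by probe sequence, normalises between arrays and summarises probe sets, and hides a change common to most transcripts. Its version and the set of arrays it was run on are not stated in the sources used here. That the log base is 2 was inferred from the range of the values.

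Of 54675 probe sets, 62 were the manufacturer's controls, 41091 named 1 gene in the platform annotation, 1801 several and 11721 none. Symbols were checked through Entrez numbers against RefSeq (GRCh38.p14), where 41037 of these probe sets matched. Gene spans and promoters came from RefSeq.

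The model, fitted with lmFit and eBayes of limma 3.58.1 (R 4.3.3), had 1 mean per group and 8 residual degrees of freedom. P-values were adjusted by Benjamini-Hochberg over 11184 genes over log2 4 on at least 3 arrays, and adjusted p-values are from this fit unless the text names the block or a left-out sample. The fit was tested on simulated data. An array under log2 4 in the dimmer group enters an "at least" fold at log2 4, and its fitted change is not a bound. The number of arrays limits the precision, and p-values measure the spread between samples labelled as biological replicates.

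Same-numbered samples of different groups deviated together from their group means (r = 0.279 to 0.577 over 18 pairs, against -0.371 to -0.0286 for 36 pairs of different numbers). The deviations within a group sum to 0, so positive values for same numbers go with negative ones for different numbers. The main fit leaves this pairing out. For the motors, the fit with the number as a block is given where it changes a call against control.

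Motor classes, related lists and members were chosen with earlier results of these data known. Values per sample are given for motors that passed with a change of at least 1 log2 unit and for the 3 largest rises and falls per class and time, and here for the other tested motors too. Of each related list at most 3 genes with the largest change are named, and DYNC1H1 is given besides. Alternatives were the block, no filter, a stricter filter (log2 5 on 6 arrays), quantile normalisation, equal medians, scaling to 18 hybridisation-control probe sets, 2 other rules for probe sets, a floor at log2 4 and leaving out each sample.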

Additional observations from a re-analysis of the deposited data

Results flagged for a closer look

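For 8 kinesin genes the change under Aa differed between the times by a test of the difference itself (48 h change minus 24 h change, limma). It was positive for 5 mitotic motors and negative for 3 others, and 8 genes of 26 compares with 19.5% of all genes tested. Causes were not tested.

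KIF23 had a difference of 1.11 (adjusted p = 0.00823) and KIF4A one of 0.72 (adjusted p = 0.0135). KIF13A had the largest of these differences in size, -2.23 (adjusted p = 0.00265), and KIF21A gave -0.94 (adjusted p = 0.00986). The second KIF13A probe set over the filter, of mean log2 4.08, gave changes of only -0.07 at 24 h and -0.43 at 48 h. These 4 genes passed in all 12 fits that leave out 1 sample.

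The other 4 did not. KIF20A (0.68, adjusted p = 0.0336) was lost in 7 of the 12 fits, those without Aa replicate 2 or 3 at 24 h, Aa replicate 3 at 48 h, control replicate 2 or 3 at 24 h, or control replicate 1 or 2 at 48 h (values 0.55 to 0.80, highest adjusted p = 0.0743). KIF18B (0.55, adjusted p = 0.0311) was lost in 8, without replicate 2 or 3 of Aa at either time, control replicate 1 or 3 at 24 h, or control replicate 1 or 2 at 48 h (0.48 to 0.65, highest adjusted p = 0.0743). KIF2C (0.52, adjusted p = 0.0408) was lost in 9, all but those without Aa replicate 1 at 48 h, control replicate 1 at 24 h or control replicate 3 at 48 h (0.47 to 0.62, highest adjusted p = 0.0956). KIF1B (-1.01, adjusted p = 0.0342) was lost in 6, without Aa replicate 2 at 24 h, Aa replicate 3 at 48 h, control replicate 1 or 3 at 24 h, or control replicate 1 or 2 at 48 h (-1.14 to -0.79, highest adjusted p = 0.081).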

How the results depend on the processing

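Of 52 results for single genes (26 genes at 2 times), 20 kept their direction and call in all alternatives that gave a value, among them both times of KIF14, KIF16B, KIF17, KIF20A and KIF26B. KIF16B, KIF17 and KIF26B were favoured by the filter to differ, so their constancy is no sign of a firm result. The stricter filter gave no value for KIF17, and the mean of all probe sets gave none for KIF13A and KIF26B. The transport class depended on the probe set chosen: its median change at 24 h (-0.20) was 0.25 with the mean of all probe sets and 0.04 with the probe set of largest variance. It was -0.16 with equal array medians, -0.48 with hybridisation-control scaling, -0.03 without a filter, -0.24 with quantile normalisation and -0.32 with the stricter filter, and -0.21 to -0.16 without 1 sample. At 48 h (-0.48) it was -0.93 with hybridisation-control scaling, -0.22 with the mean of probe sets, -0.23 without a filter and -0.73 with the stricter filter. The mitotic median was -0.50 at 24 h and -0.60 at 48 h with hybridisation-control scaling, and -0.45 at 24 h with the probe set of largest variance.

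Transport kinesins that rose at 24 h (2) numbered 1 with hybridisation-control scaling or the stricter filter and 4 with the mean of probe sets. Those that fell (2) numbered 4 with hybridisation-control scaling or the replicate block, 1 without a filter and 1 to 2 without 1 sample. At 48 h hybridisation-control scaling left 2 mitotic rises of 4 and 1 transport rise of 3. Without a filter 3 transport kinesins fell of 5, and without 1 sample 3 to 6. For the difference between times, mitotic rises (5) numbered 2 with hybridisation-control scaling, 3 with the probe set of largest variance and 2 to 6 without 1 sample. Transport rises (0) numbered 1 with the replicate block, and transport falls (2) numbered 1 without a filter and 1 to 3 without 1 sample.

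Between the Aa times, mitotic rises (0) numbered 1 with the mean of probe sets, quantile normalisation or the replicate block, and 7 mitotic (2) and 7 transport (2) kinesins fell with hybridisation-control scaling. The 1 transport rise was 0 with equal medians, hybridisation-control scaling, no filter or the stricter filter, and 0 to 1 without 1 sample. Between the control times, mitotic falls (1) numbered 0 with equal medians or the probe set of largest variance, 3 with the mean of probe sets, 5 with the floor, 9 with the replicate block and 11 with hybridisation-control scaling, and 0 to 5 without 1 sample. Transport falls (0) numbered 1 with hybridisation-control scaling and 1 with the replicate block.

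With hybridisation-control scaling the sign turned for KIF11 (-0.21), KIF18B (-0.07), KIF22 (-0.05), KIF3A (-0.04), KIF5B (-0.02) and KIF21A (-0.22) at 24 h, and for KIF2C (-0.13), KIF4A (-0.27) and KIF5B (-0.09) at 48 h. With the mean of probe sets it turned for KIF1B at 24 h (0.06) and for KIF1C (0.58 at 24 h, 0.46 at 48 h), and with the probe set of largest variance for KIF1C (2.21 and 1.61) and for KIF3C at 48 h (-0.29). Leaving out 1 sample gave -0.17 to 0.12 for KIF23 and -0.03 to 0.11 for KIF21A at 24 h. The cause of these shifts was not tested. Values near background carry no order, which limits KIF16B, KIF17 and KIF26B to bounds.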
